A study of Arabidopsis thaliana with 54 samples.

Results

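Guvermectin (GV) at 10 µM was compared with no compound after 5 min, the shortest of 3 exposures, in RNA of whole Arabidopsis thaliana seedlings. The genes described are the 8915 with a mean of at least 1 FPKM (fragments per kilobase of gene and M reads) in either group, of 23997 rows in the table and 10622 genes tested. The full study had 18 groups of 3 libraries, the control, GV and 4 plant hormones each at 5, 30 and 180 min: indole-3-acetic acid (IAA, an auxin), trans-zeatin (ZT, a cytokinin), epibrassinolide (eBL, a brassinosteroid) and gibberellin A3 (GA3). The hormones were given at 1 µM and GV at 10 µM, so the level with each hormone is set beside those of GV and control without a test between single compounds. The columns read as GV carry the name W, which was matched to GV because it was the only compound left without a column, and every GV value rests on that match. All groups were seedlings of 1 species with no mutant or transgene named, and neither their age, ecotype nor growth medium is given in the sources used here, nor whether the control held a solvent. Nothing in the labels tells whether libraries of 1 group are independent cultures, and p-values therefore reflect the variation among these libraries alone, part of which may be technical.

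GV is a purine nucleoside made by Streptomyces bacteria and used on crops as a growth regulator. Within minutes of a stimulus, plant cells use ready-made factors to switch on a first set of genes. Heat shock factors bind heat shock elements and raise small chaperones, which hold unfolding proteins. Touch and wounding raise calcium, jasmonate and a set of WRKY, ERF and MYB factors, and jasmonate then releases JAZ repressors from their targets while inducing the same repressors as a brake. Young seedlings also live on seed reserves, which isocitrate lyase helps to turn from lipid into sugar.

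The 6 libraries implied 18.66 to 20.05 M reads each, of which 34.07% to 36.23% lay in the deposited table. One read in a gene of 1 kb was worth 0.04989 to 0.0536 FPKM. Averaged over all 54 libraries, 209 genes of the table had means from 343.6 FPKM upward and none lay between that level and 10.53 FPKM. Genes whose overall mean falls between could thus not be analysed, although single groups of the genes below have means in that range. Of the gene lists used below, the table held 13 of 29 heat shock, 24 of 36 cytokinin and 8 of 22 clock genes. Counts for such lists do not cover the whole list. Over log2(FPKM + 1), GV libraries correlated with each other at 0.9761 or more, control libraries at 0.9802 or more, and a GV with a control library at 0.9524 to 0.9562. Root markers fixed for the check of the tissue label summed to 12.9 to 15.2 FPKM in the control libraries and 9.19 to 10.5 FPKM with GV, and 1 of 4 fell, the root aquaporin TIP2-3 (from 3.75 to 2.06 FPKM), while 0 of the 4 had a positive difference. The 6 shoot and leaf markers summed to 30.7 to 32.5 FPKM in the control and 24.3 to 27.4 FPKM with GV, and 1 of them fell, the guard cell factor FAMA (from 6.32 to 4.63 FPKM). Both sums were lower with GV without overlap, and the part of either marker list in the results below was not tested. In bulk RNA of whole seedlings, fewer cells of a type and less RNA per cell cannot be told apart.

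Heat shock genes stood at the top of the change. The 3 largest differences with 5 or more FPKM in nuclear genes belonged to the small heat shock proteins HSP21, HSP17.4A and HSP26.5. The sequences before their starts, and before those of 3 more chaperone or heat-responsive genes, are shown with any heat shock elements found there. Binding of heat shock factors was not measured. Each is the 250 bases before the annotated gene start, 5′ to 3′ on the gene's strand, from RefSeq TAIR10.1. Capitals mark heat shock elements, searched as GAANNTTC or TTCNNGAA, which is the same set on both strands. Neighbouring elements may overlap.
HSP21, chr4:13819972-13820221, minus strand: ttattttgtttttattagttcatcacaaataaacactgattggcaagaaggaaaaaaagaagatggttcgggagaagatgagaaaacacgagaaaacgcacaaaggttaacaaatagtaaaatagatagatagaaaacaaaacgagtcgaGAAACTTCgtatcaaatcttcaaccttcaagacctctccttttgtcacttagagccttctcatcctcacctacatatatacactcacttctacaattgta
HSP17.4A, chr3:16984868-16985117, minus strand: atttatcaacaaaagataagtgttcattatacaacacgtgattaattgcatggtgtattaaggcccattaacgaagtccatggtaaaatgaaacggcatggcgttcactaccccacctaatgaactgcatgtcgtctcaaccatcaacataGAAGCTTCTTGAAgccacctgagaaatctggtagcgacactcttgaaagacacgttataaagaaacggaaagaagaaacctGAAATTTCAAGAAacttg
HSP26.5, chr1:19575867-19576116, minus strand: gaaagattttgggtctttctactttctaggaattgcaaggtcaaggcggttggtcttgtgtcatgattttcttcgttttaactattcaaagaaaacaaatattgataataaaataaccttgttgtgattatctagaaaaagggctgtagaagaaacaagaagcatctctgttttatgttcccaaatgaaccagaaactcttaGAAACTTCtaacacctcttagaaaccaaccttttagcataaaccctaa
APX2, chr3:2955906-2956155, plus strand: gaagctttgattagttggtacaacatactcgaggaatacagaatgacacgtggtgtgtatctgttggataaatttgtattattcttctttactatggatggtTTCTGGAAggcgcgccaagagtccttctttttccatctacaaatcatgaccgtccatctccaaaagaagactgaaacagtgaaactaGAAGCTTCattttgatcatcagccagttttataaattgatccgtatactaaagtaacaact
AT1G71000, chr1:26770178-26770427, minus strand: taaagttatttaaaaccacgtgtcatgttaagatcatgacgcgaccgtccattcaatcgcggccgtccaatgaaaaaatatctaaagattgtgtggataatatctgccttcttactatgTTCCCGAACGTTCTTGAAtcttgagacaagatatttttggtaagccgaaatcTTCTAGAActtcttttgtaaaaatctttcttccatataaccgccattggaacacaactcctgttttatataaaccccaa
HSP70-8, chr2:13653946-13654195, minus strand: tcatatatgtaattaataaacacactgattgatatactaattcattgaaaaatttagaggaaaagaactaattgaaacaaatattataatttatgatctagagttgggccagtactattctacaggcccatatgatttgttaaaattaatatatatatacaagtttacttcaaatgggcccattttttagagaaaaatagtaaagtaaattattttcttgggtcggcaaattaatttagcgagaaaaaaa
HSP17.4A and AT1G71000 held 4 elements each, APX2 held 2, HSP21 and HSP26.5 held 1 each, and HSP70-8 held 0 in this window. In HSP17.4A 2 of the 4 lay within 20 bases of the start, at -18 and -13.

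Over all 8915 genes, 768 were higher with GV, which was 8.61% of them, and 319 were lower, which was 3.58%. The test was limma on log2(FPKM + 1) with Benjamini-Hochberg adjustment, called under 0.05, and every difference below is on that scale, which understates the change of genes with low values. The median size was 0.63 for the genes called higher and 0.50 for those called lower. A difference of at least 2-fold on this scale was reached by 149 genes called higher and 28 called lower, and 4-fold by 16 and 1. The median over all genes was 0.03. With quantile normalization the split was 650 higher and 471 lower. Of the genes called higher, 215 were under 1 FPKM in the control, and of those called lower 66 were under 1 FPKM with GV. The filter on low values kept such genes only through the group where they were high. Among the 8026 genes with both means at 1 FPKM or more, 553 were higher (6.89%) and 253 lower (3.15%), with a median of 0.02. The 3 GV values lay above all 3 control values in 1796 genes (20.1%) and below them in 1082 (12.1%). The number called lower rose to 479 when 1 library of another group, eBL at 30 min replicate 3, was left out of the shared fit, and to 516 when only the libraries at 5 min were fitted. Without that eBL library all calls rose from 1087 to 1495. It had 10896 genes above 0, beside 13591 and 13571 in the other libraries of its group.

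**Figure D1:**
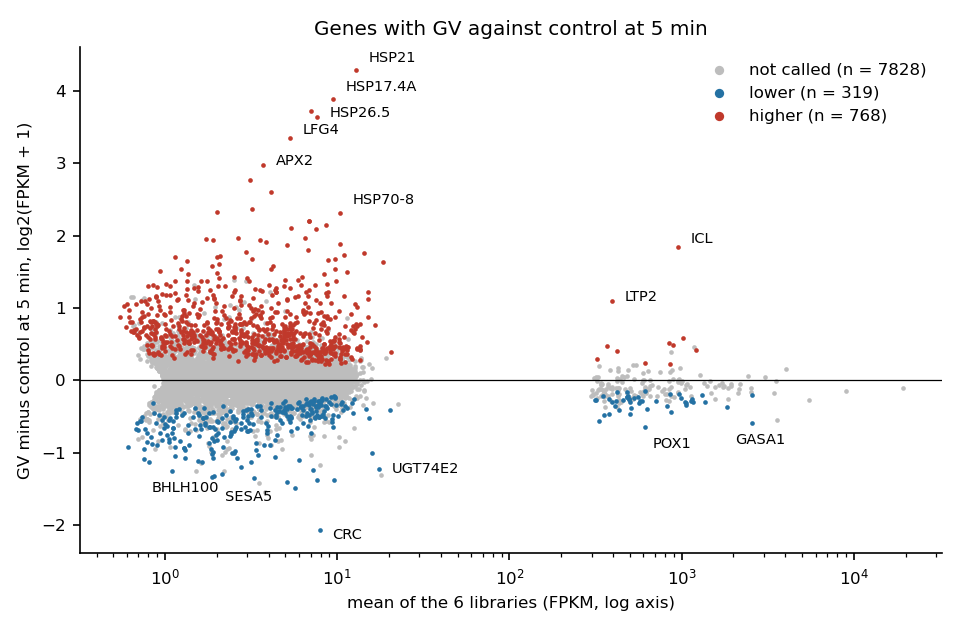
Difference between GV and control at 5 min on the log2(FPKM + 1) scale (y axis) against the mean of the 6 libraries in FPKM (x axis, log scale) for 8915 genes, with 768 called higher in red and 319 called lower in blue. HSP21, HSP17.4A and HSP26.5 stand at the top with differences of 3.65 to 4.29, and ICL stands highest, at 1.85, among the 209 abundant genes at the right.

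HSP21, a small heat shock protein of the chloroplast (AT4G27670, chromosome 4, 13818825 to 13819971, minus strand), measured 0.203, 0.206 and 0.643 FPKM in the 3 control libraries and 30.0, 24.3 and 21.8 FPKM in the 3 GV libraries. The difference was 4.29 ± 0.15 (SE) with an adjusted p of 9.08e-25, the largest of all genes tested here. All GV libraries were far above all control libraries. The same gene stood at 0.467 FPKM with IAA, 15.72 with ZT, 1.66 with eBL and 27.3 with GA3, so ZT and GA3 libraries were high and IAA libraries low. HSP17.4A, a cytosolic small heat shock protein (AT3G46230, chromosome 3, 16984118 to 16984867, minus strand), measured 0.133, 0.54 and 0.281 FPKM in the control and 15.9, 18.9 and 20.5 FPKM with GV (3.89 ± 0.33, adjusted p = 7.32e-12). HSP26.5, a small heat shock protein (AT1G52560, chromosome 1, 19574538 to 19575866, minus strand), measured 0.191, 0.291 and 0.353 FPKM in the control and 14.8, 16.5 and 13.7 FPKM with GV (3.65 ± 0.15, adjusted p = 5.8e-23). For both genes no GV library came near a control library. The hormone groups had 0.436 FPKM with IAA, 18.3 with ZT, 1.65 with eBL and 23.7 with GA3 for HSP17.4A.

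Other chaperone and heat-responsive genes rose as well. HSP70-8, a truncated relative of the HSP70 chaperones (AT2G32120, chromosome 2, 13651442 to 13653945, minus strand), measured 2.4, 3.22 and 2.8 FPKM in the control and 16.2, 20.1 and 17.62 FPKM with GV, a difference of 2.32 ± 0.11 (SE) with adjusted p = 6.87e-21. BAG6, a co-chaperone that binds calmodulin (AT2G46240, chromosome 2, 18986133 to 18990220, plus strand), measured 4.63, 4.16 and 4.82 FPKM and 19.2, 16.7 and 16.3 FPKM in the same order (1.73 ± 0.09, adjusted p = 1.68e-19). Both genes were well above their detection limit in the control, and neither overlapped between groups. HSP15.7, a small heat shock protein of peroxisomes, rose from 4.86 to 12.7 FPKM (1.23 ± 0.17, adjusted p = 3.47e-07). AT1G71000, which the annotation calls a DnaJ-domain chaperone, measured 0.961, 1.31 and 0.838 FPKM in the control and 6.06, 7.09 and 6.8 FPKM with GV (1.91 ± 0.18, adjusted p = 2.19e-11). APX2, a cytosolic ascorbate peroxidase known as a heat shock factor target (AT3G09640, chromosome 3, 2956156 to 2958330, plus strand), measured 0.0467, 0 and 0.0986 FPKM in the control and 8.55, 8.03 and 5.61 FPKM with GV (2.98 ± 0.16, adjusted p = 2.31e-18). APX2 was thus near the level of single reads in the control and measured in every GV library.

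Of the heat shock list, 8 of 13 measured genes rose, with a list median of 1.23 beside 0.03 for all genes. Of those 13, 4 were under 1 FPKM in the control (HSP21, HSP17.4A, HSP26.5 and APX2). Among the 9 with both means at 1 FPKM or more, 4 rose and their median was 0.13. Of the 23 measured genes named as heat shock factors or heat shock proteins, 8 rose, with a median of 0.01, and of the 19 of them with both means at 1 FPKM or more, 4 rose, with a median of -0.03. The rise was thus carried by some members of either set. The heat shock factor gene HSFA7B was in the second set alone and was 1 of the 8 that rose there. It measured 0.138, 0.843 and 0.828 FPKM in the control and 2.52, 4.02 and 3.73 FPKM with GV. Of the 4 heat shock factor genes of the heat shock list, 1 rose. HSFA4A, a factor tied to oxidative signals, rose from 7.03 to 9.79 FPKM (0.43 ± 0.10, adjusted p = 0.00296). HSFA3 had 4.86 FPKM in the control and 4.17 FPKM with GV (adjusted p = 0.278), and the repressor-type factors HSFB2A (adjusted p = 0.591) and HSFB2B (adjusted p = 0.58) did not pass either. The abundant constitutive HSP70 MED37E had 968 FPKM in the control and 828 FPKM with GV (adjusted p = 0.668), and its close relative MED37D had 8.3 FPKM in the control and 6.9 FPKM with GV (adjusted p = 0.0933). Reads of these near-identical HSP70 copies may be split between them.

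**Figure D2:**
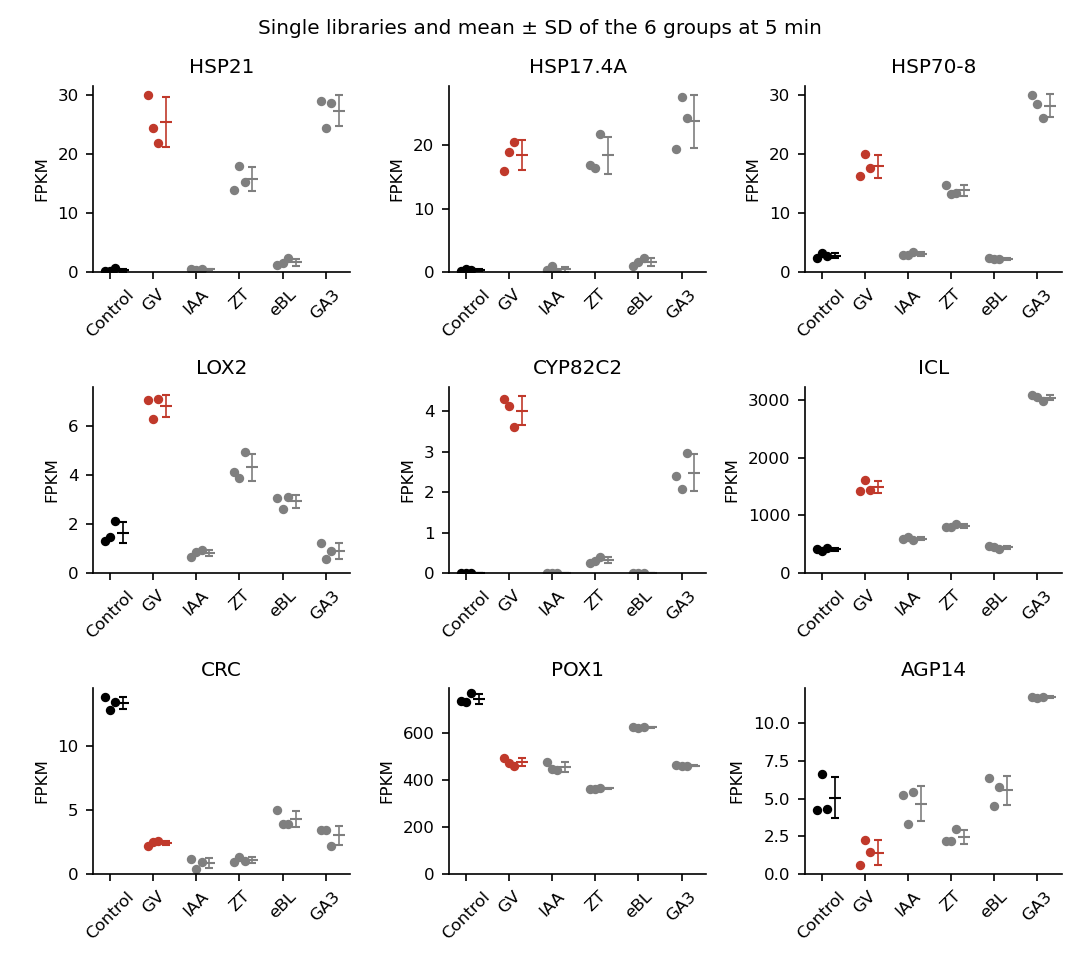
FPKM of 9 genes in single libraries (points) of the 6 groups at 5 min, with the mean ± SD of 3 libraries beside them; GV was at 10 µM and the hormones at 1 µM. HSP21 stands at 21.8 to 30.0 FPKM with GV against at most 0.643 in the control, with ZT and GA3 libraries high and IAA libraries low, and CRC is highest in the control.

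Genes of other kinds were also among the 25 ranked highest. LFG4, a membrane protein of the Bax inhibitor family (AT1G03070, chromosome 1, 729830 to 731565, plus strand), measured 0.16, 0.162 and 0.0422 FPKM in the control and 9.54, 9.84 and 12.2 FPKM with GV (3.35 ± 0.14, adjusted p = 4.76e-22). AT5G05220, an uncharacterized gene, rose from 0.0434 to 6.16 FPKM (2.77 ± 0.17, adjusted p = 1.92e-16), and its control libraries lay below all 15 other libraries at 5 min. AT2G15220, which encodes a plant basic secretory protein, measured 0.356, 0.361 and 0.282 FPKM and 4.21, 5.98 and 8.02 FPKM in control and GV (2.37 ± 0.25, adjusted p = 6.2e-10). These 3 genes were close to 0 in every control library. With ZT and GA3 their means were 8.73 and 17.5 FPKM (LFG4), 4.93 and 7.43 FPKM (AT5G05220) and 6.4 and 5.91 FPKM (AT2G15220). With IAA and eBL the means of all 3 were under 1 FPKM. MSRB7, a methionine sulfoxide reductase that repairs oxidized methionine, rose from 1.81 to 12 FPKM (2.2 ± 0.22, adjusted p = 3.92e-10). SRO5, known from the salt and oxidative stress response, rose from 0.789 to 5.14 FPKM (1.78 ± 0.13, adjusted p = 2.3e-14), and AT5G54165, annotated as a rapidly elicited protein, rose from 2.3 to 12.8 FPKM (2.09 ± 0.28, adjusted p = 4.89e-07). The protease inhibitor AT5G43570 varied most among its GV libraries, at 14, 24.7 and 29.4 FPKM against 7.56, 5.31 and 4.53 FPKM in the control (1.77 ± 0.24, adjusted p = 4.51e-07). The spread of its GV libraries was wide, but the groups did not overlap. The BTB/POZ protein gene AT3G19920 (14.7 ± 0.236 FPKM, SD, n = 3, with GV, 2.55 ± 0.295 in the control) and the inositol phosphate synthase gene IPS2 (16.9 ± 1.94 against 3.84 ± 0.145) both rose, with adjusted p of 7.97e-15 and 2.11e-17. In both, all 3 GV libraries exceeded the 15 other libraries at 5 min.

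Jasmonate genes rose in the majority. Of 19 measured, 15 rose and the other 4 did not pass the test, with a median of 0.52 beside 0.03 for all genes. Of the 16 with both means at 1 FPKM or more, 12 rose. The steps of jasmonate synthesis were covered nearly throughout. LOX2, the chloroplast lipoxygenase that starts wound-induced synthesis (AT3G45140, chromosome 3, 16525245 to 16529352, plus strand), measured 1.32, 1.46 and 2.12 FPKM in the control and 7.04, 6.28 and 7.07 FPKM with GV, a difference of 1.58 ± 0.13 (SE) with adjusted p = 7.37e-13. Its GV libraries were above those of every other group at 5 min, where it stood at 0.823 FPKM with IAA, 4.3 with ZT, 2.92 with eBL and 0.909 with GA3. Allene oxide synthase CYP74A rose from 2.56 to 4.8 FPKM (0.71 ± 0.17, adjusted p = 0.00327). The allene oxide cyclases AOC1 (0.52 ± 0.16, adjusted p = 0.0207) and AOC3 (0.53 ± 0.14, adjusted p = 0.00697) rose too. OPR3, the reductase of the peroxisomal branch, rose from 7.79 to 12.7 FPKM (0.65 ± 0.10, adjusted p = 6.05e-06). All these steps changed in the same direction, and LOX2 changed most. LOX3 rose from 0.533 to 1.14 FPKM (0.47 ± 0.11, adjusted p = 0.00205) and LOX4 from 0.891 to 1.54 FPKM (0.43 ± 0.12, adjusted p = 0.0136).

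Repressors and catabolic enzymes of the jasmonate pathway rose by smaller steps. JAZ10, a repressor of jasmonate signalling, rose from 2.43 to 3.6 FPKM (0.42 ± 0.11, adjusted p = 0.00459), TIFY10A (JAZ1) from 12 to 17.7 FPKM (0.53 ± 0.17, adjusted p = 0.0301), and TIFY11B from 9.76 to 12.9 FPKM (0.37 ± 0.12, adjusted p = 0.0455). The JAZ genes TIFY6A and TIFY6B did not pass the test (adjusted p = 0.679 and 0.49). CYP94C1 and CYP94B1, which oxidize the active conjugate jasmonoyl-isoleucine, rose (0.56 ± 0.15, adjusted p = 0.00687, and 0.46 ± 0.15, adjusted p = 0.0456), while CYP94B3 had 6.39 FPKM in the control and 5.78 FPKM with GV (adjusted p = 0.714). The transcription factor gene MYC4 had 4.18 FPKM in the control and 3.78 FPKM with GV (adjusted p = 0.675). At 5 min TIFY10A stood at 6.89 FPKM with IAA, 28.5 with ZT, 13.7 with eBL and 14.6 with GA3.

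Genes of touch, wounding and early calcium signals rose in 8 of 14 cases, with a median of 0.60. Among the 11 with both means at 1 FPKM or more, 6 rose. The 14 genes summed to 57.0 to 60.3 FPKM in the control libraries and 82.9 to 86.7 FPKM with GV. Their sums were 62.4 FPKM with IAA, 147.7 with ZT, 61.3 with eBL and 96.1 with GA3. RBOHD, the NADPH oxidase that makes apoplastic superoxide (AT5G47910, chromosome 5, 19397041 to 19402061, plus strand), measured 4.06, 4.06 and 4.23 FPKM in the control and 8.39, 8.82 and 8.91 FPKM with GV (0.92 ± 0.09, adjusted p = 2.33e-10). Its libraries were tight in both groups. RBOHD was higher still in the ZT (10.8 to 12.9 FPKM) and GA3 libraries (11.4 to 12.1 FPKM). It had 4.35 to 4.54 FPKM with IAA and 4.97 to 5.22 FPKM with eBL. CML37, a calmodulin-like protein, rose from 0.161 to 1.42 FPKM (1.05 ± 0.13, adjusted p = 4.08e-08), the zinc finger repressor ZAT10 from 8.53 to 13.5 FPKM (0.6 ± 0.13, adjusted p = 0.000685) and the ubiquitin ligase gene ATL31 from 6.22 to 12 FPKM (0.85 ± 0.18, adjusted p = 0.000844). WRKY40, another early gene of this kind, had 10.9 FPKM in the control and 8.3 FPKM with GV (adjusted p = 0.0567). PUB22, a U-box ligase that dampens defence, rose from 7.22 to 10.3 FPKM (0.45 ± 0.12, adjusted p = 0.00961), and its relative PUB23 had 3.11 FPKM in the control and 5.31 FPKM with GV (adjusted p = 0.0773). Another calmodulin-like gene fell: CML41 measured 8.3, 6.28 and 7.28 FPKM in the control and 2.44, 5.61 and 5.25 FPKM with GV (-0.66 ± 0.18, adjusted p = 0.0122), with GV replicate 1 lowest. Of 20 genes named as calmodulin-like or calcium-dependent kinases 2 rose and 1 fell, beside 8.61% and 3.58% of all genes.

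Families of transcription factors were counted beside the 8.61% higher and 3.58% lower of all genes. Of 25 WRKY genes 7 rose, with a family median of 0.10 beside 0.03 for all genes. Among the 22 with both means at 1 FPKM or more, 6 rose. WRKY45 rose from 10.3 to 19.8 FPKM (0.88 ± 0.11, adjusted p = 1.68e-07), WRKY75, which is induced by phosphate starvation, from 5.93 to 11.5 FPKM (0.86 ± 0.15, adjusted p = 6.51e-05), and WRKY60 from 5.11 to 9.62 FPKM (0.79 ± 0.14, adjusted p = 6.79e-05). WRKY8, WRKY28, WRKY48 and WRKY53 were the others. Of 37 ERF and DREB genes, 11 rose and 2 fell, and 8 and 2 did so among the 31 with both means at 1 FPKM or more. DREB2E, a factor of the dehydration-responsive type, rose from 0.298 to 2.37 FPKM (1.38 ± 0.22, adjusted p = 8.47e-06). ERF1B, which joins ethylene and jasmonate signals, measured 0.101, 0.102 and 0.0533 FPKM in the control and 0.935, 0.922 and 1.15 FPKM with GV (0.88 ± 0.17, adjusted p = 0.00031), and its GV libraries exceeded all 15 others at 5 min. The 2 that fell were ERF013 (from 9.28 to 6.32 FPKM, adjusted p = 0.0133) and CRF4 (from 7.4 to 5.03 FPKM, adjusted p = 0.0106). Of 24 NAC genes 5 rose and 1 fell, led by anac103 (0.89 ± 0.14, adjusted p = 8.91e-06), a factor of the unfolded protein response, and ANAC087 was the one that fell (from 9.86 to 6.72 FPKM). With both means at 1 FPKM or more, 4 of 22 NAC genes rose and 1 fell. Of 36 MYB genes 5 rose, among them MYB15 (from 0.758 to 2.32 FPKM, adjusted p = 0.000176) and MYB101 (from 5.56 to 9.24 FPKM, adjusted p = 6.2e-06). With both means at 1 FPKM or more, 3 of 31 MYB genes rose, beside 6.89% of all such genes. The ZT libraries had 17.7 FPKM of MYB15. Of 32 bHLH genes 2 rose and 3 fell, and among the 27 with both means at 1 FPKM or more 0 rose and 1 fell, beside 6.89% and 3.15% of all such genes.

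Of the 3 glucosinolate genes measured 2 rose, CYP79B2 and CYP79B3. CYP71A12, FOX1, CYP82C2 and CYP71B15 were set beside them after their values were seen. CYP79B2 and CYP79B3 turn tryptophan into indole-3-acetaldoxime, the shared precursor of indole glucosinolates and camalexin. CYP79B2 (AT4G39950, chromosome 4, 18525042 to 18527602, plus strand) measured 4.09, 4.0 and 5.45 FPKM in the control and 15.6, 14.7 and 14.3 FPKM with GV (1.54 ± 0.19, adjusted p = 3.2e-08). CYP79B3 measured 5.12, 4.58 and 4.63 FPKM and 11.7, 11.1 and 10.6 FPKM in the same order (1.07 ± 0.10, adjusted p = 1.98e-11). Neither gene overlapped between groups. CYP71A12, which acts on that precursor, measured 0.401, 0.576 and 0.353 FPKM in the control and 8.89, 7.46 and 7.02 FPKM with GV (2.6 ± 0.13, adjusted p = 2.43e-19). FOX1 (also called AtBBE3), an oxidase of the same branch, rose from 1.61 to 8.52 FPKM (1.87 ± 0.16, adjusted p = 5.38e-12). CYP82C2, which makes a hydroxylated cyanogenic product of that branch (AT4G31970, chromosome 4, 15462350 to 15464563, plus strand), was listed at 0, 0 and 0 FPKM in the control and measured 4.31, 4.12 and 3.61 FPKM with GV. It was listed at 0 in the IAA and eBL libraries too, and at 0.323 FPKM with ZT and 2.48 FPKM with GA3. All 3 GV libraries exceeded the 15 others. With ZT the 4 genes named before CYP82C2 stood higher than with GV. CYP79B2 measured 26.72 to 28.95 FPKM with ZT and CYP79B3 13.11 to 15.04 FPKM. The ZT means were 12.57 FPKM for CYP71A12 and 20.77 FPKM for FOX1. With GA3 the values were 11.08 to 11.99, 9.45 to 11.41, 15.66 and 6.6 FPKM in the same order. CYP71B15, the last enzyme of camalexin synthesis, rose from 0.699 to 1.46 FPKM (0.53 ± 0.14, adjusted p = 0.00772), and MYB34, an activator of indole glucosinolate genes, had 3.39 FPKM in the control and 3.41 FPKM with GV (adjusted p = 0.998).

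Of 11 salicylate and pathogen defence genes measured, 4 rose and the median was 0.03, beside 0.03 for all genes. Of the 7 with both means at 1 FPKM or more 1 rose, with a median of -0.07. CYP71A12 and CYP71B15 were 2 of the 4, and the receptor kinase gene SIRK (from 3.97 to 7.71 FPKM, adjusted p = 6.72e-06) and the transporter gene DTX47 (EDS5), which exports the salicylate precursor (from 0.958 to 1.98 FPKM, adjusted p = 0.00155), were the others. PR1, the standard salicylate marker, had 4.23 FPKM in the control and 2.98 FPKM with GV (adjusted p = 0.176). The peroxidase gene PER4 rose from 0.884 to 6.18 FPKM (1.94 ± 0.17, adjusted p = 8.22e-12), with its control libraries below all 15 others, and PER59 measured 1.96, 1.62 and 1.8 FPKM in the control and 12.3, 11.8 and 11.4 FPKM with GV (2.2 ± 0.16, adjusted p = 9.26e-15). Among 27 class III peroxidases, which crosslink and loosen cell walls, 7 rose and 2 fell, the 2 being PER56 (from 2.85 to 1.17 FPKM) and PER73 (from 2.09 to 0.659 FPKM), and among the 19 with both means at 1 FPKM or more 4 rose and 1 fell. CCOAMT, annotated as a caffeoyl-CoA methyltransferase of phenylpropanoid metabolism, rose from 2.05 to 10.9 FPKM (1.96 ± 0.14, adjusted p = 1.41e-14), above all 15 other libraries.

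Glutathione S-transferases, which conjugate toxins, rose in 8 of 17 cases and fell in 2, with a median of 0.51. Of the 14 with both means at 1 FPKM or more, 7 rose and 1 fell. GSTU8 rose from 3.55 to 9.61 FPKM (1.23 ± 0.14, adjusted p = 1.28e-08), GSTU17 from 6.35 to 15.5 FPKM (1.16 ± 0.20, adjusted p = 4.11e-05) and GSTU25 from 0.136 to 2.55 FPKM (1.65 ± 0.15, adjusted p = 1.6e-11). GSTF14 (from 2.76 to 0.956 FPKM) and GSTU9 (from 11.2 to 7.71 FPKM) were the 2 that fell. Of 36 UDP-glycosyltransferases, which attach sugars to hormones and toxins, 12 rose and 2 fell, with a median of 0.18. Of the 32 with both means at 1 FPKM or more, 10 rose and 2 fell. UGT74E2, which glycosylates indole-3-butyric acid (AT1G05680, chromosome 1, 1703002 to 1704838, minus strand), moved against the family, with 25.5, 23.8 and 25.6 FPKM in the control and 11.2, 9.01 and 10.4 FPKM with GV (-1.22 ± 0.14, adjusted p = 7.79e-09). It stood at 2.62 FPKM with IAA, 9.3 with ZT, 26.7 with eBL and 32.3 with GA3. Of 82 cytochrome P450 genes 21 rose and 3 fell, with a family median of 0.14 beside 0.03 for all genes. With both means at 1 FPKM or more, 14 of 66 rose and 1 fell.

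Of 12 genes of nitrogen, phosphate, sulfur and iron nutrition 6 rose and 2 fell. Of the 12, 5 passed the filter on low values through 1 group alone, and among the 7 with both means at 1 FPKM or more 3 rose and 0 fell. The sulfate reduction enzyme APR1 measured 2.55, 2.48 and 2.64 FPKM in the control and 6.18, 6.57 and 6.76 FPKM with GV (1.07 ± 0.12, adjusted p = 1.65e-09), and APR2 rose from 4.27 to 6.46 FPKM (0.5 ± 0.13, adjusted p = 0.00689). The sulfur deficiency markers SDI1 (from 0.181 to 1.74 FPKM, 1.2 ± 0.16, adjusted p = 1.69e-07), LSU1 (from 0.0375 to 1.12 FPKM, 1.02 ± 0.16, adjusted p = 7.78e-06) and LSU2 (from 0.559 to 2.0 FPKM, 0.94 ± 0.14, adjusted p = 2.15e-06) rose as well. All 3 were under 1 FPKM in the control. In the GA3 libraries APR1 stood at 18.9 FPKM and LSU2 at 8.68 FPKM, above GV. The 2 that fell, both under 1 FPKM with GV, encode factors of the iron deficiency response: BHLH100 measured 2.37, 1.79 and 1.73 FPKM in the control and 0.222, 0.278 and 0.223 FPKM with GV (-1.25 ± 0.12, adjusted p = 1.01e-10), and ORG2 (bHLH38) fell from 1.54 to 0.514 FPKM (-0.76 ± 0.16, adjusted p = 0.000843). ORG3, another of that kind in the list, had 1.51 FPKM in the control and 1.08 FPKM with GV (adjusted p = 0.332). BHLH100 was also low in the hormone groups, at 0.294 FPKM with IAA, 0.292 with ZT, 1.01 with eBL and 0.135 with GA3. The phosphate transporter gene PHT1-4 rose from 3.39 to 5.04 FPKM (0.45 ± 0.11, adjusted p = 0.00262).

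GV is a purine nucleoside, and zeatin is a cytokinin built on the purine adenine. The counts of genes called higher in the cytokinin and purine lists, 1 in each, were near the 8.61% of all genes. Of 13 cytokinin genes measured, 1 rose, the cytokinin response factor gene CRF5 (from 6.05 to 8.32 FPKM, 0.4 ± 0.12, adjusted p = 0.017), with a list median of 0.03 that turned to -0.03 with quantile normalization. The cytokinin receptor AHK4 (adjusted p = 0.618), the type-A response regulator ARR16 (adjusted p = 0.44), the oxidase CKX5 (adjusted p = 0.818) and the synthesis genes IPT3 (1.78 FPKM in the control and 2.63 FPKM with GV, adjusted p = 0.0919) and IPT5 (2.63 FPKM in the control and 1.78 FPKM with GV, adjusted p = 0.0636) did not pass the test. Of 12 genes of purine and nucleoside metabolism and transport, 1 rose, the ureide and nucleobase permease UPS1 (from 3.18 to 4.7 FPKM, 0.45 ± 0.14, adjusted p = 0.0297), a call lost with quantile normalization. ASE1, which starts purine synthesis, had 1.44 FPKM in the control and 2.3 FPKM with GV (adjusted p = 0.116).

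Of 14 auxin genes 4 rose and 1 fell, and 2 and 1 did so among the 12 with both means at 1 FPKM or more. Beside these and the lists below, 8.61% of all genes rose and 3.58% fell. With both means at 1 FPKM or more the shares were 6.89% and 3.15%. List medians were 0.09 for auxin, -0.04 for brassinosteroid, 0.18 for gibberellin and 0.33 for ethylene. That of abscisic acid, cold and drought was 0.07, beside 0.03 for all genes. SAUR19, a rapid auxin response gene, rose from 0.809 to 2.28 FPKM (0.87 ± 0.17, adjusted p = 0.000216), beside 17.78 FPKM with IAA, and SAUR9 (0.66 ± 0.18, adjusted p = 0.0107) and SAUR15 (0.82 ± 0.27, adjusted p = 0.0416) rose too. Reads of such SAUR genes may be split among near-identical neighbours. Among 4 brassinosteroid genes limma called 0, with 0 higher and 1 lower at an unadjusted p under 0.05, and the lowest adjusted p was that of AGP4 (0.0946). Of 9 gibberellin genes, the synthesis enzyme GA3OX2 (from 0.467 to 1.53 FPKM, 0.78 ± 0.17, adjusted p = 0.000787) and the DELLA repressor RGL2 (from 1.27 to 2.11 FPKM, 0.46 ± 0.13, adjusted p = 0.0125) rose and GASA1 fell. GA3OX2 stood at 7.04 FPKM and RGL2 at 6.59 FPKM in the GA3 libraries. Among the 8 gibberellin genes with both means at 1 FPKM or more, 1 rose and 1 fell. Of 6 ethylene genes 3 rose, among them ERF1B and ACO1 (from 1.11 to 3.77 FPKM, 1.17 ± 0.10, adjusted p = 3.89e-12), an oxidase that makes ethylene from its direct precursor. Among the 4 ethylene genes with both means at 1 FPKM or more, 2 rose. Of 7 abscisic acid, cold and drought genes 3 rose, of which RD29A measured 5.73, 6.0 and 5.72 FPKM in the control and 11.9, 10.6 and 12.2 FPKM with GV (0.88 ± 0.11, adjusted p = 1.02e-07). KIN1 (from 0.101 to 1.7 FPKM, 1.29 ± 0.21, adjusted p = 2.08e-05) and PXG3 (from 0.516 to 1.5 FPKM, 0.71 ± 0.20, adjusted p = 0.0133) were the others, both under 1 FPKM in the control, and 1 of the 4 with both means at 1 FPKM or more rose. COR15B, of the same cold group, had 1.16 FPKM in the control and 0.646 FPKM with GV (adjusted p = 0.0696).

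Small lists gave further named changes. The flavonoid genes CHS, which makes the first flavonoid skeleton (from 3.81 to 10.9 FPKM, 1.31 ± 0.16, adjusted p = 2.12e-08), and FLS1 (from 1.41 to 2.58 FPKM, 0.55 ± 0.18, adjusted p = 0.0368) were the 2 of 4 that rose, and FLS1 lost its call with quantile normalization. The low oxygen genes ERF071 (from 1.36 to 4.08 FPKM, 1.12 ± 0.28, adjusted p = 0.00505) and SUS1 (from 3.87 to 6.54 FPKM, 0.65 ± 0.15, adjusted p = 0.00137) rose among 3. MED37B, the inducible BiP chaperone of the endoplasmic reticulum, rose from 1.72 to 3.72 FPKM (0.78 ± 0.21, adjusted p = 0.00761), and the sensor gene ATIRE1-1 had 8.68 FPKM in the control and 8.44 FPKM with GV (adjusted p = 0.867). Of 7 clock genes 2 rose, LHY (from 5.29 to 7.28 FPKM, 0.4 ± 0.10, adjusted p = 0.00499) and LNK1 (from 10.6 to 13.5 FPKM, 0.32 ± 0.09, adjusted p = 0.0147), the latter not called with quantile normalization. Of 5 oxidative and mitochondrial stress genes 4 rose, APX2, GSTU25, the catalase gene CAT3 (from 362 to 479.8 FPKM) and the iron superoxide dismutase gene FSD1 (from 289 to 356 FPKM), and UGT74E2 fell. APX2 and GSTU25 were under 1 FPKM in the control, and among the other 3 genes 2 rose and 1 fell. Among 12 cell cycle genes limma called 0, with 0 higher and 1 lower at an unadjusted p under 0.05.

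Seed genes split. Of 13 storage protein, oleosin and late embryogenesis genes, 4 fell and 3 rose, all with both means at 1 FPKM or more. The 12S globulin gene CRC (AT4G28520, chromosome 4, 14087556 to 14089796, plus strand) had the largest fall of all genes named here, with 13.8, 12.9 and 13.5 FPKM in the control and 2.23, 2.47 and 2.56 FPKM with GV (-2.07 ± 0.12, adjusted p = 2.11e-17). Its control libraries lay above all 15 other libraries at 5 min, with 0.867 FPKM with IAA, 1.1 with ZT, 4.28 with eBL and 3.04 with GA3. The 2S albumin gene SESA5 measured 10.2, 9.63 and 6.98 FPKM in the control and 2.72, 2.52 and 2.24 FPKM with GV (-1.49 ± 0.17, adjusted p = 6.45e-09), and AT2S2, another 2S albumin, fell from 3.88 to 1.34 FPKM (-1.07 ± 0.23, adjusted p = 0.000738). The 2S albumin copies are alike, and their reads may be split. M17, a glycine-rich late embryogenesis gene, measured 16, 14.4 and 12.5 FPKM and 4.46, 3.82 and 6.59 FPKM in the same order (-1.38 ± 0.15, adjusted p = 1.59e-09). In each of these 4 the groups were apart. The late embryogenesis genes EM1 (from 2.06 to 5.17 FPKM, 1.02 ± 0.23, adjusted p = 0.0015) and ECP63 (from 3.23 to 6.69 FPKM, 0.87 ± 0.19, adjusted p = 0.00132) and the seed regulator ABI3 (from 2.32 to 4.05 FPKM, 0.61 ± 0.09, adjusted p = 4.11e-06) rose. EM1 and ECP63 stood at 23.64 and 30.2 FPKM in the GA3 libraries. The oil body gene OLEO1 had 2.28 FPKM in the control and 1.45 FPKM with GV (adjusted p = 0.104).

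Other genes that fell were of mixed kinds. AT5G13210, a conserved gene of unknown role, measured 21.7, 20.2 and 23 FPKM in the control and 10.1, 10.7 and 10.0 FPKM with GV (-1.01 ± 0.08, adjusted p = 1.58e-13). GMI1, known for induction by DNA damage, measured 9.54, 7.67 and 8.57 FPKM and 3.31, 3.81 and 3.28 FPKM (-1.1 ± 0.09, adjusted p = 1.09e-12), and its control libraries lay above all 15 others. AT2G18190, a nucleoside triphosphate hydrolase gene, fell from 10.6 to 3.92 FPKM (-1.24 ± 0.15, adjusted p = 1.57e-08). These 3 had no overlap between groups. The arabinogalactan protein gene AGP14, of root hair cell walls, measured 4.28, 6.67 and 4.31 FPKM in the control and 0.614, 2.25 and 1.44 FPKM with GV (-1.36 ± 0.22, adjusted p = 1.72e-05). AT5G55150, an F-box gene, fell from 7.85 to 2.38 FPKM (-1.4 ± 0.17, adjusted p = 6.28e-08), AT4G12735 from 11.4 to 3.78 FPKM (-1.37 ± 0.24, adjusted p = 6.86e-05) and the extensin-like gene AT1G23720 from 5.63 to 2.54 FPKM (-0.9 ± 0.13, adjusted p = 1.73e-06). GPX7, a chloroplast glutathione peroxidase, fell from 5.85 to 3.06 FPKM (-0.75 ± 0.15, adjusted p = 0.000232), and RCI2B, a small membrane protein of the cold response, from 5.13 to 2.69 FPKM (-0.73 ± 0.17, adjusted p = 0.00207). The remaining genes among the 25 lowest fell by 0.63 to 1.03 on the log2 scale. AT2G34080, a cysteine protease gene (from 5.2 to 2.33 FPKM), and SDR4 (from 6.88 to 3.84 FPKM) had GV libraries below all 15 others at 5 min.

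Among the 209 abundant genes the balance was reversed: 11 were higher and 47 lower, with a median of -0.14, but with quantile normalization 18 and 26 with a median of -0.03. ICL, the isocitrate lyase of the glyoxylate cycle (AT3G21720, chromosome 3, 7652487 to 7656053, minus strand), went most strongly against this, with 413, 390.1 and 438 FPKM in the control and 1426, 1606 and 1437 FPKM with GV (1.85 ± 0.07, adjusted p = 2.21e-23). It stood at 598 FPKM with IAA, 817 with ZT, 444 with eBL and 3038 with GA3. PCKA, a later step toward sugar from lipid, had 308 FPKM in the control and 353 FPKM with GV (adjusted p = 0.168). LTP2, a lipid transfer protein of the epidermis, measured 252, 249.7 and 251 FPKM in the control and 564, 549 and 506 FPKM with GV (1.1 ± 0.10, adjusted p = 8.15e-12), with its control libraries below all 15 others. EARLI1, GRP3, PER71 and AT1G09310 rose by 0.48 to 0.58 on that scale, of which PER71 lost its call with median-ratio scaling.

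POX1, the proline dehydrogenase that breaks down proline (AT3G30775, chromosome 3, 12448636 to 12451556, minus strand), fell most in this class, with 734, 731 and 769 FPKM in the control and 493, 472 and 459 FPKM with GV (-0.65 ± 0.05, adjusted p = 6.82e-13). GASA1, a gibberellin-regulated cell wall peptide gene, measured 3129, 3135 and 2969.9 FPKM and 1961, 2069 and 2084 FPKM (-0.59 ± 0.11, adjusted p = 0.000103). In both the control libraries exceeded all 15 others at 5 min. The cutin esterase gene CDEF1 fell from 397 to 269 FPKM (-0.56 ± 0.18, adjusted p = 0.0414), with its GV libraries below all 15 others. The ferredoxin reductase gene LFNR2 fell from 579.7 to 420.3 FPKM (-0.46 ± 0.05, adjusted p = 1.28e-08) and AT2G20670 from 440.1 to 318 FPKM (-0.47 ± 0.05, adjusted p = 1.04e-08). The sugar starvation genes DIN10 (from 1245 to 1028 FPKM, -0.28 ± 0.06, adjusted p = 0.000748) and STR15 (SEN1; from 1003 to 741 FPKM, -0.44 ± 0.11, adjusted p = 0.00303) were 2 of 5 that fell, while ASN1 had 875 FPKM in the control and 805 FPKM with GV (adjusted p = 0.0676). Of 18 nuclear photosynthesis genes 1 fell, PSAD1 (from 1035 to 905 FPKM, -0.19 ± 0.06, adjusted p = 0.0449), and the list median of -0.07 turned to 0.05 with quantile normalization. Of 61 ribosomal protein genes 6 fell, by 0.26 to 0.73 on the log2 scale, led by RPL6 (from 462 to 361 FPKM, -0.36 ± 0.08, adjusted p = 0.00192). Genes called lower were 3.58% of all genes and 22.5% of the 209 abundant genes. RPL6, RPS23B, RPL13 and RPS31, among the 6, were of this abundant class. The family median of -0.16 went to -0.09 with quantile normalization.

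Most organelle genes lay near the filter on low values. Of 60 chloroplast-encoded genes 7 fell, among them the photosystem II genes PSBC (5.72, 7.37 and 5.59 FPKM in the control, 2.74, 2.11 and 2.54 FPKM with GV, -1.06 ± 0.25, adjusted p = 0.00297) and PSBD (from 4.7 to 1.62 FPKM, -1.12 ± 0.21, adjusted p = 0.000156), and 4 of the 7 were under 1 FPKM with GV. Of 18 mitochondrion-encoded genes 13 rose, but 16 of the 18 passed the filter only through 1 group, so their count says little. COX1, a cytochrome oxidase subunit, rose from 0.442 to 2.51 FPKM (1.27 ± 0.14, adjusted p = 3.93e-09). NAD5B, an annotated stretch of 22 bases, ranked next to HSP17.4A by size with 11, 4 and 3 reads in the GV libraries and 0 in each control library.

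The search for promoter motifs covered 8752 genes, over 250 bases before to 50 after the start and on both strands. At least 1 heat shock element lay in 18.9% of all these promoters, in 21.8% of those of genes called higher (164 of 751), in 54 of the 307 of those called lower, and in 7 of 13 of the heat shock list. Among 24 of the 25 genes ranked highest, 10 held one. The G-box CACGTG lay in 8.83% of all promoters, 13.2% of those called higher and 7.82% of those called lower. The ABRE, searched as ACGTGG or ACGTGT and overlapping the G-box in part, lay in 19.5%, 26.8% and 21.5%, and the W-box, TTGACC or TTGACT, in 33.6%, 40.2% and 33.9% in the same order. The RY motif CATGCA lay in 9.07%, 13.2% and 12.1%. The CRT CCGAC (16%, 15.8% and 13.7%), the CGCG-box CGCGTT or CGCGTG (6.41%, 7.99% and 6.51%) and the evening element AAAATATCT (2.97%, 4.26% and 1.95%) were the other motifs searched. Letters that match a motif describe the sequence and do not show that a factor bound there.

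Tested against the mean of the 4 hormone groups, GV was higher in 579 of 8915 genes (6.49%) and lower in 762 (8.55%), and the control was higher in 541 (6.07%) and lower in 1371 (15.4%). With quantile normalization the control was higher in 953 and lower in 883, so the balance of its calls depends on the scaling. Without GV replicate 2 or 3 the count for GV fell from 1341 to 831 or 886, and without control replicate 2 or 3 the number of genes higher in the control fell to 346 or 358. Of the 768 genes called higher with GV, 39 had all GV libraries above the 15 others at 5 min and 98 had all control libraries below the 15 others. Of the 319 called lower, 28 had all GV libraries lowest and 61 had all control libraries highest. Over all genes these 4 positions were taken by 0.808%, 2.13%, 0.875% and 1.33%. The calls used the same GV and control libraries, so larger shares among called genes were built in and are no separate evidence. With quantile normalization 61 of the genes called higher had all GV libraries highest and 68 had all control libraries lowest, and over all genes 191 had the control above and 108 had it below all 15 others, against 119 and 190 without it.

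The difference at 5 min was seldom the difference later. At 30 min 143 of the 8915 genes were higher and 317 lower with GV (1.6% and 3.56%), and at 180 min 539 and 315 (6.05% and 3.53%); these comparisons share no library with that at 5 min. Of the 768 genes higher at 5 min, 22 were higher at 30 min and 123 lower, which is 16.02% of the 768 and 38.8% of the 317. Of the 319 lower at 5 min, 43 were higher at 30 min (13.5% of the 319, 30.1% of the 143) and 16 lower. At 180 min, 96 of the 768 were higher and 85 lower, and 54 of the 319 were higher and 17 lower. The test of the change itself called 1016 genes between 5 and 30 min (11.4%) and 932 between 5 and 180 min (10.5%). It called 506 of the 768 and 182 of the 319 between 5 and 30 min, using the 5 min libraries that chose them.

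HSP21 shows the pattern at its largest. At 30 min it had 7.47 FPKM in the control and 0.933 FPKM with GV (difference -2.14 ± 0.15, adjusted p = 2.65e-14), and at 180 min 0.169 FPKM in the control and 0.241 FPKM with GV (adjusted p = 0.794). HSP26.5 had 3.2 FPKM in the control and 0.419 FPKM with GV at 30 min (-1.56 ± 0.15, adjusted p = 1.13e-10), and AT1G71000 had 3.78 FPKM in the control and 0.474 FPKM with GV (-1.7 ± 0.18, adjusted p = 1.02e-09). ICL had 3262 FPKM in the control and 777 FPKM with GV at 30 min (-2.07 ± 0.07, adjusted p = 4.9e-25) and 1819 FPKM in the control and 896 FPKM with GV at 180 min (-1.02 ± 0.07, adjusted p = 2.52e-14), so the control stood above GV at both later times. CRC went the other way at 30 min, with 2.52 FPKM in the control and 10.0 FPKM with GV (1.65 ± 0.12, adjusted p = 6.89e-14), and back at 180 min, with 16.9 FPKM in the control and 3.24 FPKM with GV (-2.08 ± 0.12, adjusted p = 1.08e-16). SESA5 had 3.96 FPKM in the control and 22.6 FPKM with GV at 30 min (2.32 ± 0.17, adjusted p = 5.23e-14). M17 was lower with GV at 180 min too (-1.15 ± 0.15, adjusted p = 1.8e-07), and POX1 was higher with GV at 30 min (0.56 ± 0.05, adjusted p = 1.13e-10) and 180 min (0.4 ± 0.05, adjusted p = 3.07e-07). LOX2 differed by -0.05 ± 0.13, adjusted p = 0.906 at 30 min and 0.07 ± 0.13, adjusted p = 0.836 at 180 min.

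**Figure D3:**
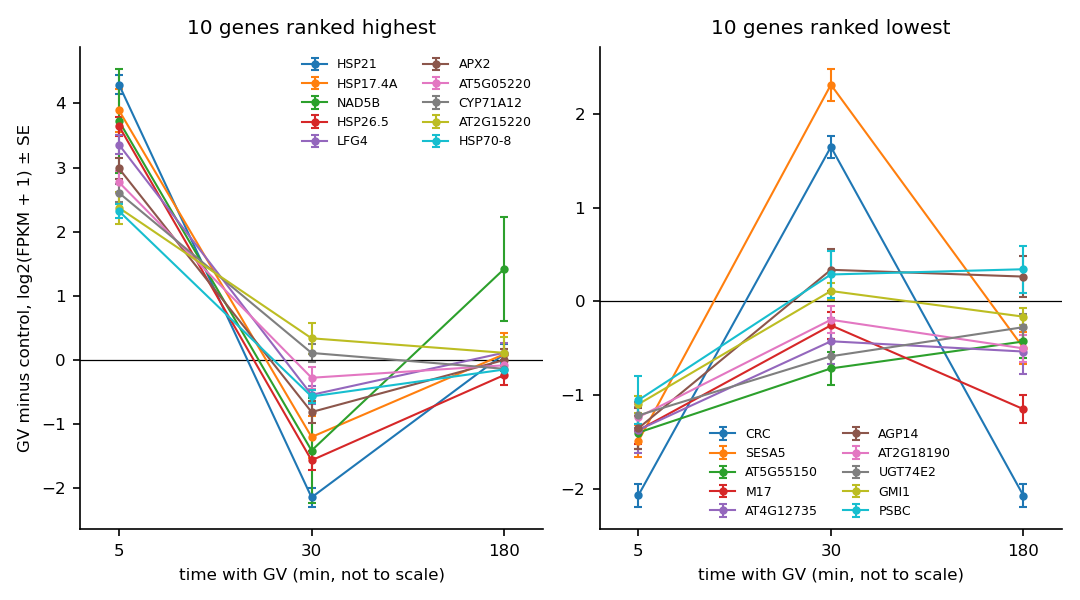
Difference between GV and control on the log2(FPKM + 1) scale, ± SE, after 5, 30 and 180 min (x axis, not to scale) for the 10 genes ranked highest (left) and lowest (right) at 5 min. HSP21 falls from 4.29 at 5 min to -2.14 at 30 min, and CRC moves from -2.07 to 1.65 and back to -2.08.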

How the data were processed

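The 54 libraries were deposited as columns of 1 table without a named unit. The deposited values were read as FPKM, since multiplying by gene length gave whole reads in 100% of values (tolerance 0.05 reads). The submitters' processing notes name Bowtie2 2.2.3 and the TAIR10 build. How reads were counted, and whether by strand, is not given in the sources used here, and reads of overlapping genes are not separable. The column name CK was read as the control, its usual meaning, and W as GV by elimination, since all other names match the labels. Of 24000 lines 3 were damaged and left out, and 13 gene names that a spreadsheet had turned into dates were replaced by RefSeq symbols through the locus. Of 23997 loci, 23498 matched TAIR10.1, whose names and locations are used here.

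Genes reaching a mean of 1 FPKM in any of the 18 groups (10622) were fitted with limma 3.58.1 (R 4.3.3; trend and robust settings) on log2(FPKM + 1), with 1 mean per group, 54 libraries, 36 residual degrees of freedom and Benjamini-Hochberg adjustment over all of them. The planned count test was not used because the unit was FPKM. The fit was also run on simulated reads, drawn for all groups from the control means at 5 min, with known changes put into GV. Those reads had 1 fixed spread and no outlying library, so the run cannot show how such a library acts here. Genes, lists and families were chosen with earlier results of these data known. Named genes were those called, without overlap between groups and with at least 5 FPKM in the higher mean, 25 each way by size; 6 each way above 300 FPKM; and up to 5 per list by adjusted p; further list members and the genes set beside them were named after their values were seen. Some genes that met this rule are counted but not reported here by name. Alternatives covered scaling, pseudocount, filters, the libraries fitted, a replicate block and each replicate left out. Replicates of a group differed by more than counting noise (chi-square per degree of freedom 2.488 to 4.702), so none was counted as a second reading of the same library. This cannot tell independent cultures from repeated preparations of 1 culture.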

Additional observations from a re-analysis of the deposited data

Results flagged for a closer look

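The genes below are those whose GV difference at 5 min differed from that at a later time by limma's interaction test, adjusted p under 0.05. Of 8915 genes 1016 did so between 5 and 30 min and 932 between 5 and 180 min. Each value is the difference at 5 min minus that at the later time on the log2(FPKM + 1) scale, for the 10 genes ranked highest and the 10 ranked lowest at 5 min. HSP21 changed by 6.43 between 5 and 30 min and by 4.2 between 5 and 180 min. HSP17.4A changed by 5.09 and 3.80, HSP26.5 by 5.21 and 3.88, and HSP70-8 by 2.89 and 2.47. LFG4 changed by 3.90 and 3.24, APX2 by 3.80 and 2.98, and AT5G05220 by 3.05 and 2.85. CYP71A12 changed by 2.49 and 2.74 and AT2G15220 by 2.03 and 2.26. NAD5B changed by 5.13 between 5 and 30 min, on few reads.

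Among the genes ranked lowest, CRC changed by -3.72 between 5 and 30 min. SESA5 changed by -3.81 and -1.0 in the same order of times, AGP14 by -1.69 and -1.62, and GMI1 by -1.21 and -0.94. AT2G18190 changed by -1.04 and -0.73, UGT74E2 by -0.63 and -0.94, and PSBC by -1.34 and -1.40. M17 changed by -1.12 between 5 and 30 min and AT5G55150 by -0.97 between 5 and 180 min. Groups held 3 libraries, too few for a check of single libraries against the rest.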

How the results depend on the processing

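Single genes were checked under the alternatives only where the naming rule above chose them, by size, abundance or adjusted p within a list. Further list members named after their values were seen were not all checked, and some of their calls lie close to the threshold. Among the genes checked, no called difference changed sign under the alternatives run, but medians near 0 did. With quantile normalization the median over all genes went from 0.03 to -0.02, and those of the cytokinin, photosynthesis and salicylate lists changed sign too. Quantile normalization gave 458 genes lower between 5 and 30 min, 953 higher and 883 lower in the control against the hormone mean, 191 with the control above and 108 with it below all 15 others, and 22 list memberships called lower. Median-ratio scaling gave 184 with the control above all 15 others. With the libraries at 5 min alone 516 genes were lower with GV. Without eBL 30 min replicate 3, 479 were lower, and 443 between 5 and 30 min. The same replicate numbers did not mark pairs (correlations of deviations -0.046, 0.051 and -0.139); the replicate block gave 1087 calls, 1011 and 945 for the changes to 30 and 180 min, and 1345 and 1904 against the hormone mean for GV and control.

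Leaving out 1 library at a time gave 820 to 1495 calls for GV against control (602 to 1016 higher, 214 to 479 lower), 860 to 1388 for the change to 30 min (622 to 945 and 231 to 443) and 763 to 1330 for the change to 180 min (435 to 727 and 328 to 603). The libraries left out were those of GV and control, and eBL 30 min replicate 3. The upper ends of 1495 and 1388 came from leaving out that eBL library, which lies outside the compared groups. GV against the hormone mean gave 831 to 1775 (378 to 778 and 453 to 997), and the control against it 1339 to 2400 (346 to 736 and 989 to 1664). Of the checks on genes chosen by the naming rule, under the other alternatives 2431 kept direction and call, 40 lost the call and 39 gained it, and 4, on genes not called in the main fit, changed sign. With 1 library left out, 1513, 109, 21 and 9 did so. The causes were not tested. Depth limits genes near 1 FPKM. A pseudocount of 0.1 ended the calls of AT2S2, CYP71B15, PXG3, FAMA and FLS1, no filter on low values those of CDEF1, PER71, PSAD1, SAUR15, FAMA and FLS1, and a fit of the groups compared alone those of LOX3 and CML41, among others. UPS1, FAMA, PER71, CDEF1, PSAD1, SAUR15, FLS1, LNK1, AT1G09310, GRP3 and CRF5 were among those that lost theirs without 3 or more single libraries tried in turn.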
